A study of Mus musculus with 3 samples.

Results

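Cycling Langerhans cells are described here as they appeared in single-cell RNA libraries from mouse ear epidermis. A cell was counted as a Langerhans cell (LC) when it had at least 500 detected genes, at most 10% mitochondrial counts, at least 2% of its counts in Cd74, H2-Aa, H2-Ab1 and H2-Eb1 together, at least 2 counts of Epcam, and below 0.1% of its counts in Krt14, Krt5, Krt1 and Krt10 together. It was counted as cycling when Top2a, Mki67, Birc5, Ube2c, Ccnb2, Cenpf, Cenpe and Knl1 together reached at least 1000 CPM (counts scaled to a cell total of 1000000). This gave 239 cycling LCs of 21381 gated LCs and of 25062 cells in all. Of the 239 cells, 197 came from the untreated, 7 from the croton oil-treated and 35 from the microneedle-treated ears. Since the cells were chosen by these 8 genes, the levels of the 8 genes are given only as a description.

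The animals were male mice of the outbred CD1 stock. There was 1 library from untreated mice, which had been given depilatory cream (Nair) alone, 1 from mice whose ears received croton oil, an irritant, with acetone and olive oil as the other components, and 1 from mice given multiple microneedle punches. Ears were taken 48 hours after treatment began. The epidermal sheet was separated with trypsin, dead cells were removed and LCs were enriched magnetically, and the number of animals behind each library is not given in the labels. With 1 library per group, treatment and library cannot be told apart, and no p-value is given anywhere. Cells are not replicates, and all intervals are exact 95% intervals that cover counting error only.

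Each count was a unique molecular identifier (UMI), which stands for 1 captured RNA molecule. The libraries held 127666928 UMIs (untreated), 119360952 UMIs (croton oil) and 117178809 UMIs (microneedle). The gate passed 95.3%, 78.3% and 82.1% of the quality-filtered cells, in the same order, and left 9366, 6387 and 5628 LCs. Libraries shared at most 32 barcodes in any pair, and no barcode was cycling in both libraries of a pair.

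LCs are the epidermis's own antigen-presenting cells. They persist there largely by dividing in place, without constant replacement from blood. A dividing cell first copies its DNA (S phase), with helicases of the Mcm family opening the origins, then condenses its chromosomes, attaches them to the spindle through the kinetochore and splits. The genes for these steps are switched on in order, S phase genes early and spindle genes late, so the set of genes a cell carries tells roughly where in the cycle it is.

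The 8 genes that chose the cells cover several steps of division. Top2a (ENSMUSG00000020914) encodes the topoisomerase that untangles sister chromatids. Its pooled level was 692 CPM in the cycling LCs of the untreated library, 203 CPM in those of the croton oil library and 632 CPM in those of the microneedle library. In LCs whose 8-gene sum was below 200 CPM, called low-cycle LCs from here on, Top2a was at 9.44, 4.68 and 6.60 CPM. Such cells numbered 8269, 5998 and 4933. Mki67 (ENSMUSG00000031004), the proliferation antigen that coats mitotic chromosomes, was at 713, 595 and 734 CPM in cycling LCs and at 21.5, 21.6 and 32.1 CPM in low-cycle LCs. Mki67 therefore had the highest background of the 8 genes.

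The other 6 genes act at several steps of mitosis. Cenpf (ENSMUSG00000026605), a kinetochore protein, was at 460.1, 256 and 309 CPM in cycling LCs against 0.966, 0.916 and 0.678 CPM in low-cycle LCs. Ube2c (ENSMUSG00000001403), the ubiquitin-conjugating enzyme of the anaphase-promoting complex, was at 299.7, 422 and 195 CPM against 1.09, 0.986 and 0.765 CPM. Birc5 (ENSMUSG00000017716), survivin, was at 323, 279 and 268 CPM against 1.94, 3.39 and 3.71 CPM. Ccnb2, a mitotic cyclin, Cenpe, a kinetochore motor, and Knl1, a kinetochore scaffold, lay between 143 and 282 CPM in the cycling LCs of all 3 libraries and at most at 5.92 CPM in low-cycle LCs. These 6 genes were low in low-cycle LCs. In LCs at 200 to below 1000 CPM of the sum, Cenpe stood at 43.8, 19.4 and 25.2 CPM, which the plot of the 8 genes shows beside Mki67.

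**Figure D1:**
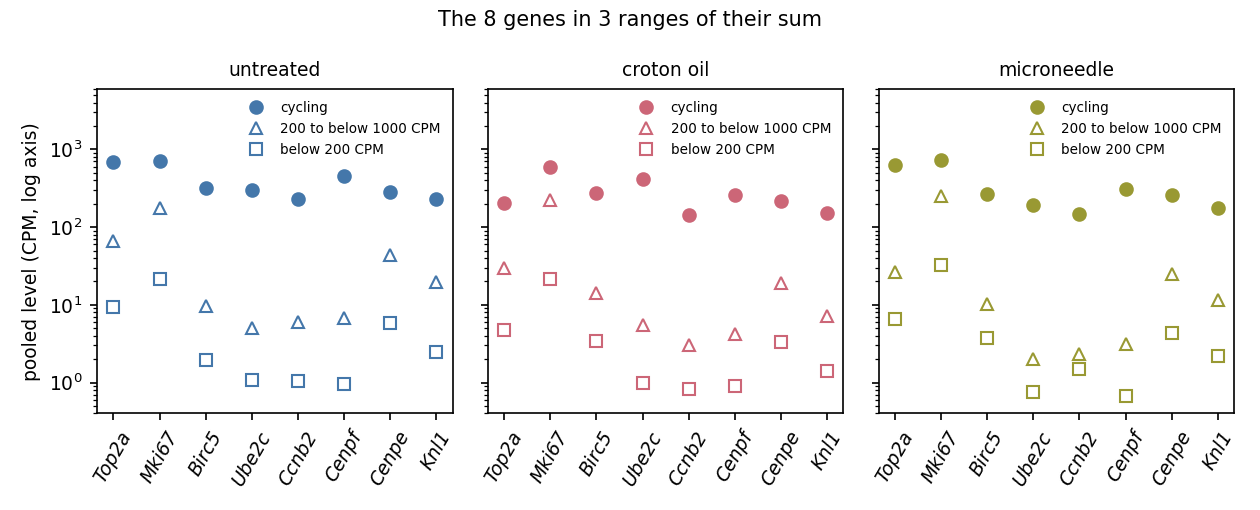
Pooled CPM (log axis) of each of the 8 genes in cycling LCs (filled circles), LCs with an 8-gene sum of 200 to below 1000 CPM (triangles) and low-cycle LCs (squares), 1 panel per library. Mki67 stands highest in the middle and low ranges, at 21.5, 21.6 and 32.1 CPM in low-cycle LCs.

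Near the threshold, 8, 1 and 4 cells (untreated, croton oil, microneedle) lay at 900 to 1000 CPM, just outside, and 4, 0 and 7 cells at 1000 to 1100 CPM, just inside. Between 200 and 1000 CPM lay 900, 382 and 660 LCs. The median 8-gene sum of the cycling LCs was 2860 CPM in the untreated library (lowest 1012, highest 9308), 1481 CPM in the croton oil library (lowest 1104, highest 3652) and 2105 CPM in the microneedle library (lowest 1023, highest 7057). Few cells sat at the edge in the untreated library, and a larger part of the treated libraries' cells had low sums: 48 of 197, 4 of 7 and 16 of 35 were below 2000 CPM.

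The promoters of these genes are shown because the genes were high in the same cells and mitotic promoters are known for 2 short elements: the CHR element, searched as TTTGAA, and the CCAAT box, searched as CCAAT, each on both strands. The sites for E2F factors, which are known to drive S phase genes, were searched as TTTCCCGC, TTTGGCGC, TTTCGCGC and TTTGCCGC, on both strands. The sequences are the 150 bases before the annotated start, 5′ to 3′ on the gene's strand, from RefSeq on GRCm38.p6, with matches in capitals (a match on the opposite strand reads TTCAAA or ATTGG). They lie at chr11:99024190-99024339 (minus strand) for Top2a, chr2:164769779-164769928 (plus strand) for Ube2c, chr7:135716380-135716529 (minus strand) for Mki67 and chr10:69352913-69353062 (minus strand) for Cdk1, the mitotic kinase, which was not among the 8 genes. The deposited counts were made on another build, GRCm39, so no other coordinate is given.
Top2a: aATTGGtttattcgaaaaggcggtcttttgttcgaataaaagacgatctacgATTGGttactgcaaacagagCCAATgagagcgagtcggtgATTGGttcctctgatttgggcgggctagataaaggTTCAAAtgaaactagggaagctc
Ube2c: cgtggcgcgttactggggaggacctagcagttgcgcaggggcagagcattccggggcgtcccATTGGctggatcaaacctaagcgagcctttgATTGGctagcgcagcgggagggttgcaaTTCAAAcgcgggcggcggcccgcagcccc
Mki67: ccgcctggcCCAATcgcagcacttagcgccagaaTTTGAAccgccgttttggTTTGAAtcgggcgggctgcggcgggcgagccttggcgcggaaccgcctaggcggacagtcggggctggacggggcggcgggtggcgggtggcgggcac
Cdk1: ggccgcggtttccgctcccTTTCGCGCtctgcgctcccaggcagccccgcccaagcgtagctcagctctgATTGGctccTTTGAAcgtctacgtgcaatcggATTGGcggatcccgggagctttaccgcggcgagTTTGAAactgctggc
Counting from -1 at the base before the start, the first base of the CHR match stood at -23 in Top2a, at -29 in Ube2c, at -116 and -98 in Mki67 and at -71 and -15 in Cdk1. The printed bases held 4 CCAAT matches in Top2a, 2 in Ube2c, 1 in Mki67 and 2 in Cdk1, and Cdk1 also held an E2F match at -131. Over the 250 bases before the start, 4 of the 8 genes had a CHR match and 6 of 8 a CCAAT match, and none had an E2F match. Among all 32851 RefSeq promoters in the table, 16.0% held a CHR match, 33.8% a CCAAT match, 5.55% both and 1.86% an E2F match. Among the 418 promoters of genes at least 2-fold higher in the untreated cycling LCs, the shares were 22.2%, 52.9%, 14.4% and 11.96%. The 7137 promoters of all genes compared there held 10.999%, 35.2%, 4.33% and 3.74%. A match is a string of letters in a window and is given as a description of these promoters.

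Cycling LCs made up 2.10% of gated LCs in the untreated library (197 of 9366; 1.82 to 2.41%). They made up 0.110% in the croton oil library (7 of 6387; 0.0441 to 0.226%) and 0.622% in the microneedle library (35 of 5628; 0.434 to 0.864%). The untreated share was 19.2 times the croton oil share (9.14 to 48.4) and 3.38 times the microneedle share (2.35 to 4.99). No interval of a share overlapped another, and both ratios share the untreated library.

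The libraries were not equally deep: the median cell had 11623 UMIs in the untreated, 12509 in the croton oil and 16427 in the microneedle library. With each LC thinned to 3000 UMIs, the cycling shares were 2.69%, 0.378% and 1.42%, leaving out 100, 32 and 55 shallower LCs, and the ratios were 7.12 (4.67 to 11.3) and 1.90 (1.47 to 2.47). At 5000 UMIs the shares were 2.26%, 0.206% and 0.905%. The order of the libraries was the same at every depth, while the size of the ratios moved. At 3000 UMIs, 3 UMIs of any of the 8 genes already reach the threshold.

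The order was also seen with genes outside the rule. A sum over 8 other mitotic genes (Cdk1, Ccna2, Nusap1, Tpx2, Prc1, Kif11, Cdca8 and Aurkb) reached 1000 CPM in 161 untreated LCs (1.72%), 4 LCs after croton oil (0.0626%) and 25 after microneedle punches (0.444%). Of these cells, 11, 0 and 6 were not among the cycling LCs as defined. At 3000 UMIs per cell the shares were 1.95%, 0.0944% and 0.592%, with ratios of 20.7 (9.32 to 57.1) and 3.30 (2.27 to 4.94). This set was therefore less moved by depth than the 8 genes of the rule.

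S phase genes were also highest in the untreated library. A sum over 15 genes (Mcm2, Mcm3, Mcm4, Mcm5, Mcm6, Mcm7, Pcna, Gins2, Cdc6, Cdt1, Ccne1, Ccne2, Uhrf1, Dut and Tyms), called the S phase set, reached 1000 CPM in 283 untreated LCs (3.02%), 23 LCs after croton oil (0.360%) and 64 after microneedle punches (1.14%). At 3000 UMIs per cell the shares were 8.84%, 3.18% (2.76 to 3.64%) and 3.95% (3.45 to 4.49%), so the intervals of the treated libraries overlapped, and the untreated share was 2.78 (2.38 to 3.26) and 2.24 (1.93 to 2.61) times theirs. Of the cells that reached it at full depth, 172, 23 and 51 lay below the threshold of the 8 genes. Of the cycling LCs themselves, 111 of 197 (56.3%), 0 of 7 and 13 of 35 (37.1%) reached 1000 CPM of the S phase set.

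**Figure D2:**
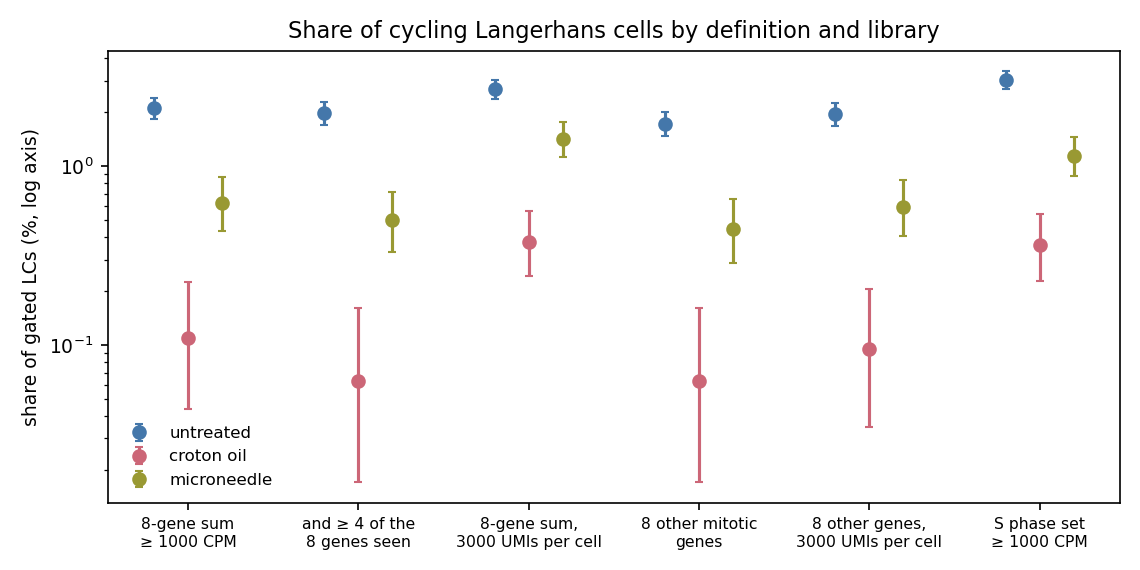
Share of gated LCs (percent, log axis) that met each definition, with exact 95% intervals for counting error; 1 point per library. Under all 6 definitions the untreated library is highest (2.10% under the rule), the microneedle library second (0.622%) and the croton oil library lowest (0.110%).

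The cells also differed in how many of the 8 genes carried them. At least 4 of the 8 genes had a UMI in 185 of the 197 untreated cells (93.9%), in 28 of the 35 microneedle cells and in 4 of the 7 croton oil cells. All 8 genes had a UMI in 124, 22 and 4 cells. Every cell with at least 4 genes also had a UMI of the 8 other mitotic genes. Counting only these cells, the shares of gated LCs were 1.98% (1.70 to 2.28%), 0.498% (0.331 to 0.718%) in the microneedle and 0.0626% (0.0171 to 0.160%) in the croton oil library. The ratios were then 3.97 (2.66 to 6.14) for microneedle and 31.5 (12.1 to 117) for croton oil.

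The 7 croton oil cells fell into a group of 4 and a group of 3. In 3 cells Mki67 gave 14 of 16, 19 of 21 and 14 of 14 UMIs of the 8 genes, and these cells had no UMI of the 8 other mitotic genes and none of Stmn1. The other 4 cells had all 8 genes, with 23, 82, 73 and 72 UMIs, and 17, 29, 29 and 31 UMIs of the 8 other mitotic genes. H2az1, the histone variant H2A.Z, was at 465 CPM in the first 3 cells and at 2750 CPM in the other 4. The 3 cells thus reached the threshold mainly through Mki67, 1 of them only with 2 further UMIs of Knl1. A late mitotic set (Cdc20, Ccnb1, Plk1, Aurka, Hmmr, Cenpa, Kif20a, Kif23, Tpx2 and Cdca8) summed to between 58.6 and 87.6 CPM in these 3 cells and to between 1545.5 and 2939 CPM in the other 4. Cells led by 1 gene, with at least 80% of the 8-gene UMIs in it, numbered 7 in the untreated and 5 in the microneedle library.

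**Figure D3:**
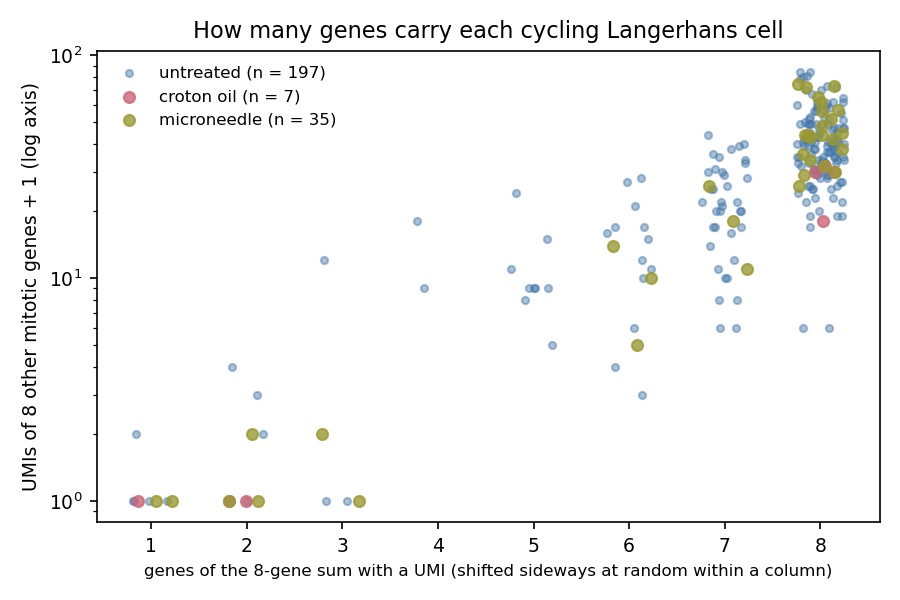
Each point is 1 cycling LC; the horizontal axis gives how many of the 8 genes had a UMI and the vertical axis the UMIs of the 8 other mitotic genes plus 1 (log axis). Of the 7 croton oil cells, 4 sit at all 8 genes and 3 at the lower left, with no UMI of the other mitotic genes.

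Mki67 had a smaller share of its UMIs in cycling cells than any other of the 8 genes, in every library. Of all Mki67 UMIs in gated LCs, 40.1% lay in cycling cells in the untreated library, 2.56% in the croton oil library and 10.6% in the microneedle library. For Cenpf 1862 of 2041 UMIs (91.2%), 34 of 134 (25.4%) and 303 of 404 lay in cycling cells, and for Top2a 61.6%, 4.65% and 40.1%. For Cenpe the shares were 50.4%, 6.99% and 26.7%. Over all gated LCs, Mki67 was at 60.4, 34.0 and 64.9 CPM, while Cenpf was at 17.1, 1.48 and 3.85 CPM and Top2a at 38.1, 6.41 and 14.8 CPM. By Mki67 alone the microneedle LCs stood level with the untreated ones, and by Cenpf and Top2a they stood below. Among LCs at 200 to below 1000 CPM, Mki67 gave at least 80% of the 8-gene UMIs in 302 of 900 untreated cells (33.6%), 225 of 382 croton oil cells (58.9%) and 391 of 660 microneedle cells (59.2%).

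Some LCs had much Mki67 and none of the 8 other mitotic genes. LCs with at least 8 Mki67 UMIs and no UMI of those genes numbered 16 in the untreated library (0.171%; 0.0977 to 0.277%), 14 in the croton oil library (0.219%; 0.120 to 0.367%) and 64 in the microneedle library (1.14%; 0.877 to 1.45%). Those that did have such UMIs numbered 162, 4 and 86. Of the 16, 14 and 64 cells, 11, 11 and 41 also had no UMI of the 7 genes of the rule other than Mki67. Stmn1 was at 70.2, 7.71 and 18.1 CPM in them, above the low-cycle level in the untreated library and below it in the others. Top2a was at 3.69, 3.85 and 2.59 CPM, and Cenpe at 11.0036 CPM in the microneedle cells against 4.32 CPM in low-cycle LCs. Of these cells, 2, 3 and 3 were among the cycling LCs. Drawing 5000 UMIs from each LC and asking for at least 3 Mki67 UMIs gave 0.329%, 0.508% and 1.19% for the same kind of cell. The microneedle share was the highest at both depths, whereas cycling LCs were most frequent in the untreated library.

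Genes that the rule did not use were high in the same cells. The untreated contrast is the one named in the rule, so its counts are a description. Of 6959 genes with at least 20 CPM on either side, 409 (5.88%) were at least 2-fold higher in cycling than in low-cycle LCs and 38 (0.546%) at least 2-fold lower. With TMM scaling factors these were 331 and 89. Fold changes are given as log2((CPM + 5)/(CPM + 5)), which understates those of low genes. Stmn1 (ENSMUSG00000028832), stathmin, which destabilises microtubules, was at 1192 CPM (1158 to 1226) in cycling LCs without treatment, 151 CPM (92.0 to 233) after croton oil and 902 CPM (843 to 963) after microneedle punches. In low-cycle LCs it was at 47.4, 22.0 and 25.002 CPM. Pclaf (ENSMUSG00000040204), a partner of the replication clamp, was at 284 CPM (267 to 301) in untreated and 299 CPM (266 to 335) in microneedle cycling LCs. The croton oil cells held only 2 Pclaf UMIs, or 15.1 CPM (1.82 to 54.4), and low-cycle LCs were below 1 CPM in every library. Pclaf had the highest log2 difference of all genes outside the rule in the untreated library, at 5.70.

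Spindle and kinase genes followed, where 5.88% of all genes compared were at least 2-fold higher. A gene near 0 in low-cycle LCs was compared only where it reached 20 CPM in cycling LCs, and was then higher by construction, so counts and medians over compared genes describe those genes and not whole lists. Of the 29 compared genes of the spindle and cytokinesis list, all 29 were at least 2-fold higher in untreated cycling LCs, with a median log2 difference of 3.67, against 0.03 over all genes compared. Prc1, which bundles the microtubules of the central spindle, was at 247 against 6.30 CPM. Hmmr, a spindle protein, was at 139 against 0.203 CPM, and Racgap1, which acts in cytokinesis, was at 159 CPM. Of 14 mitotic kinases and phosphatases all 14 were higher, with a median of 3.09. Cdk1 (ENSMUSG00000019942) was at 181, 90.4 and 134 CPM in cycling LCs, in the usual order of libraries, against 3.77, 1.64 and 1.66 CPM. In the centromere and kinetochore list 23 of 26 were higher, with a median of 2.36, and in the cohesin and condensin list 15 of 17, among them Smc2 at 355 against 23.2 CPM.

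Replication and repair genes came next. Over all genes compared in the untreated library, 5.88% were at least 2-fold higher. Of 16 compared genes of replication licensing and origin firing 14 were at least 2-fold higher (median log2 1.98), of 19 at the replication fork 15 (1.34), of 10 in deoxynucleotide synthesis 7 (1.12) and of 12 in DNA repair and replication stress all 12 (2.18). Rrm2 (ENSMUSG00000020649), a subunit of ribonucleotide reductase, was at 189, 0 and 160 CPM in cycling LCs of the untreated, croton oil and microneedle libraries, against 2.39, 1.62 and 2.03 CPM in low-cycle LCs. Pcna, the replication clamp, was at 282 against 147 CPM in the untreated library and did not reach 2-fold there. Brca1, which acts in the repair of broken forks, was at 66.0 against 2.79 CPM. Of 13 histone genes compared, in a list added after seeing the data, 9 were higher, led by the linker histone H1f5 at 177 against 0.608 CPM.

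The regulators split, where 5.88% of all genes compared in the untreated library were at least 2-fold higher and 0.546% lower. Of 10 compared cyclins and cyclin-dependent kinases 7 were higher and 1 lower. The one lower was Ccnd3 (ENSMUSG00000034165), a cyclin of early G1, at 100.3 CPM (90.8 to 111) in untreated and 155 CPM (131 to 182) in microneedle cycling LCs, against 282 and 289 CPM in low-cycle LCs. The croton oil library had 105 CPM (57.6 to 177) against 115 CPM over its 7 cells, with 188 CPM in the 4 cells below an 8-gene sum of 2000 CPM, of which 3 were Mki67-led, and 40.4 CPM in the 3 cells above it, each of which had all 8 genes. Cdkn1a (ENSMUSG00000023067), the inhibitor p21, did not separate the groups: 132 against 126 CPM, 331 against 329 CPM and 191 against 198 CPM in the same order of libraries. Of 10 compared inhibitors and quiescence genes, 4 were higher in untreated cycling LCs (Cdkn3, Cdkn2c, Cdkn2d and Rbl1). Of 10 cycle transcription factors 6 were higher, among them Foxm1, which drives mitotic genes, at 30.6 against 0.502 CPM.

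LC identity was described mainly by genes beyond the gate. Over all genes 5.88% were higher and 0.546% lower in the untreated library, so counts near 0 in short lists do not set a list apart. Of 13 compared LC identity genes, none was 2-fold higher or lower in the untreated or the microneedle library, with median log2 differences of -0.10 and -0.15, and of 10 MHC class II genes none in the untreated library (median -0.10). The MHC class II list holds the 4 genes whose sum the gate required, Cd74, H2-Aa, H2-Ab1 and H2-Eb1, so its level was partly set by the rule. In the croton oil library Tgfbr1, a TGF-beta receptor, was higher at 354 against 174 CPM, and Ahr, the aryl hydrocarbon receptor, lower at 60.2 against 192 CPM. These values rest on 7 cells. Over all genes compared in that library 9.75% were higher and 9.49% lower, so these genes do not set the list apart. Cd207 (ENSMUSG00000034783), langerin, was at 548 against 570 CPM in the untreated, 527 (411 to 666) against 318 CPM in the croton oil and 393 against 457 CPM in the microneedle library. Epcam was used by the gate too, and the gate's 5 genes are not evidence of identity. Of the 7 LC markers compared, among them Epcam, Cd74 and H2-Aa of the gate, none was 2-fold different in any library. Of 11 growth factor receptors none differed by 2-fold in the untreated library; Csf1r, the receptor for IL-34 that LCs depend on, was at 238 against 306 CPM. The lists of glycolysis (0 of 12 higher), nucleolus (0 of 11) and heat shock (0 of 9) held no gene above 2-fold, close to the 5.88% over all genes.

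Genes that were lower in untreated cycling LCs were few, 38 in all. Slfn5, an interferon-induced gene, was at 9.88 against 57.0 CPM and had the lowest log2 difference, -2.06. Kdm5b, a histone H3K4 demethylase, was at 17.8 against 62.4 CPM and Nr4a2, an immediate early nuclear receptor, at 40.3 against 114 CPM. Cd63, a tetraspanin of late endosomes, was at 121 against 313 CPM in the untreated, 693 against 1529 CPM in the croton oil and 267 against 718 CPM in the microneedle library. Cd63 was lower in the cycling cells of all 3 libraries, with log2 differences of -1.33, -1.14 and -1.41. Slfn5 was also lower in the microneedle cells, at 26.5 against 117 CPM.

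The treated libraries did not serve as the contrast of the rule. In the microneedle library 7072 genes were compared, of which 407 (5.76%) were at least 2-fold higher in cycling LCs and 95 (1.34%) lower. All 29 spindle genes were higher (median log2 3.34), as were 14 of 15 mitotic kinases (3.05), 23 of 26 kinetochore genes (2.47), 12 of 13 licensing genes (2.06) and 15 of 19 replication fork genes (1.29). The cells were nevertheless chosen by mitotic genes here too, so these counts are a description. In the croton oil library 7299 genes were compared, of which 712 (9.75%) were higher and 693 (9.49%) lower. The 7 cells held 132790 UMIs in all, so counting error alone can carry genes with a few UMIs past 2-fold, and these shares cannot be set against those of the deeper pools. With counting intervals apart, 440 (6.03%) were higher and 215 (2.95%) lower. The split also moved with scaling, to 387 higher and 1264 lower with TMM factors and to 493 and 921 with median-of-ratios factors.

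In the croton oil library 3 UMIs are needed to reach 20 CPM, so few low genes could be compared, and whole lists are given by their summed level over all 7 cells, the 3 Mki67-led ones included. The spindle list summed to 3833 CPM in cycling against 1016 CPM in low-cycle LCs, the mitotic kinases to 723 against 74.8 CPM and the kinetochore genes to 1566 against 378 CPM. The licensing genes summed to 549.7 against 197 CPM, the replication fork genes to 595 against 452 CPM, the deoxynucleotide genes to 452 against 358 CPM and the DNA repair genes to 286 against 76.6 CPM. The S phase set was level, at 218 against 216 CPM. In the untreated library the same set was at 1231 against 297 CPM and the fork genes at 1776 against 567 CPM. The plot of gene groups sets the ratios of these sums side by side.

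**Figure D4:**
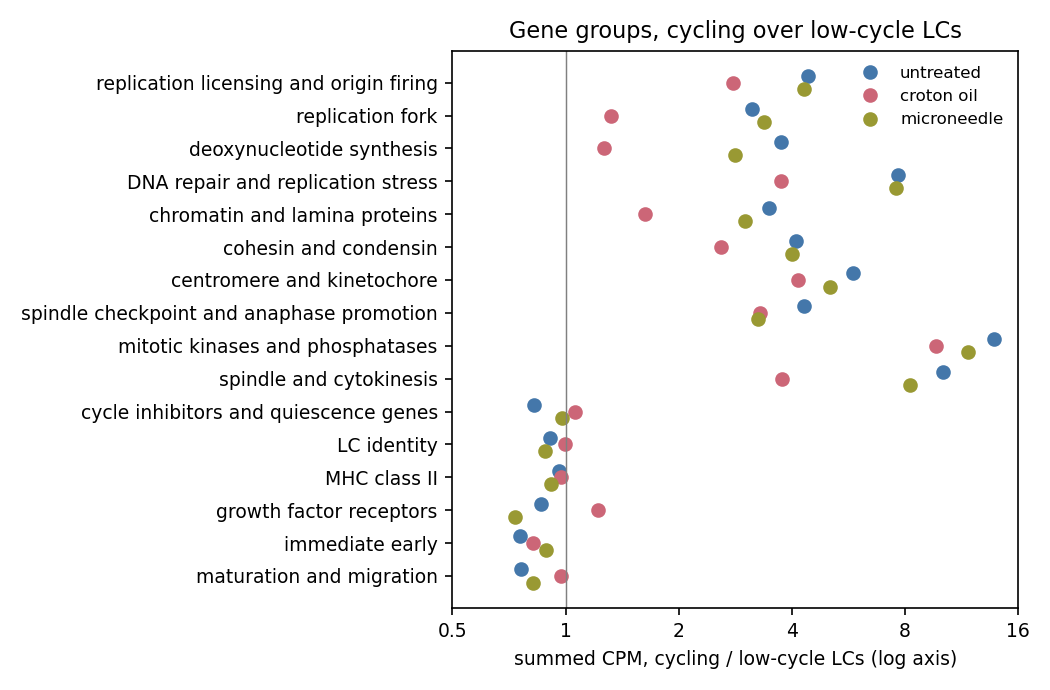
Summed CPM of each whole gene group in cycling LCs divided by that in low-cycle LCs (log axis), 1 point per library; the 8 rule genes are left out and the grey line marks equal sums. Mitotic kinases lie farthest right in every library (723 against 74.8 CPM after croton oil), LC identity and MHC class II, which holds the gate's own 4 genes, lie near the line, and the replication fork group lies nearer the line after croton oil (595 against 452 CPM) than without treatment (1776 against 567 CPM).

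The cells differed among themselves along the cycle. Split by the S phase set and by the late mitotic set, each at 1000 CPM, the untreated cells were 56 with the S phase set alone (28.4%), 55 with both (27.9%), 72 with the late set alone (36.5%) and 14 with neither (7.11%). The microneedle cells were 10, 3, 10 and 12 (28.6%, 8.57%, 28.6% and 34.3%). The croton oil cells were 0, 0, 4 and 3, so none had the S phase set at 1000 CPM. The S phase set in single cells had a median of 1174 CPM in the untreated library (lowest 0, highest 4464), 190 CPM in the croton oil library (lowest 58.6, highest 644) and 601 CPM in the microneedle library (lowest 0, highest 3496). The 7 croton oil values all lay below the untreated median. Near the cut, at 900 to 1100 CPM, lay 12, 0 and 1 cells for the S phase set and 26, 0 and 6 for the late set.

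**Figure D5:**
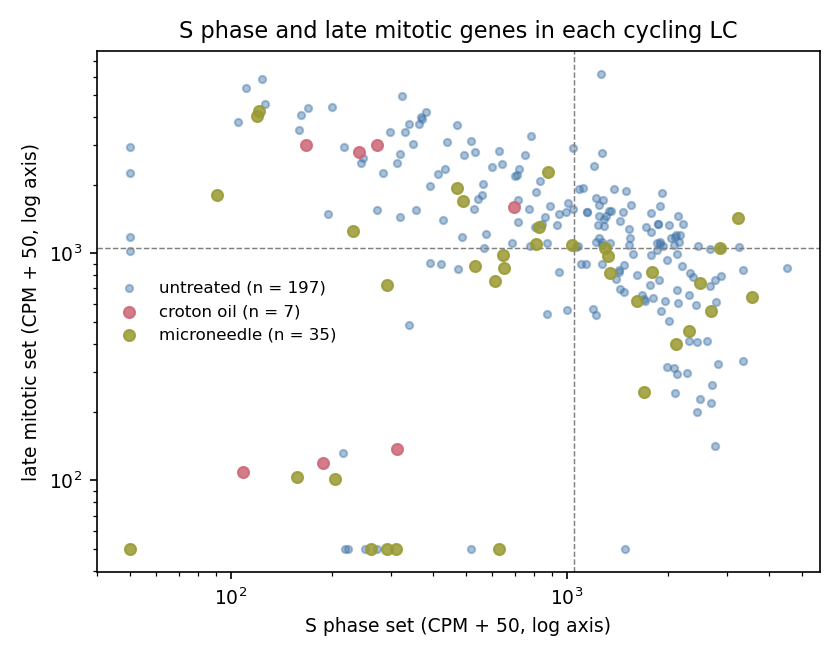
Each point is 1 cycling LC, with the S phase set on the horizontal and the late mitotic set on the vertical axis (CPM plus 50, log axes); dashed lines mark 1000 CPM. The croton oil cells lie left of the S phase line, 4 of them above the late line, and the untreated cells fall along an arc from S phase to late mitotic genes.

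The cells were also described by ranges of the 8-gene sum, the value that chose them and that itself holds late mitotic genes. Among untreated cycling LCs with a sum of 1000 to 2000, 2000 to 4000 and at least 4000 CPM (48, 99 and 50 cells), the S phase set was at 1722, 1325 and 590 CPM and the late mitotic set at 617, 1217 and 2587 CPM. Ccne2, the cyclin of S phase entry, was at 51.0, 24.4 and 6.74 CPM, and Pclaf at 368, 310 and 154 CPM. Cdc20 (ENSMUSG00000006398), the activator of the anaphase-promoting complex, was at 45.8, 94.8 and 306 CPM, and Ccnb1 (ENSMUSG00000041431), the mitotic cyclin, at 18.7, 77.2 and 262 CPM. In the microneedle cells the S phase set was at 1452, 1228 and 425 CPM and the late set at 399, 942 and 1896 CPM. Since the ranges are cut on mitotic genes, the late set's order over them is a description only. The LC identity genes stayed between 3798 and 4122 CPM in sum over the 3 untreated ranges.

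Differences between the libraries were seen in cycling and low-cycle LCs alike. Against untreated cycling LCs, 7186 genes were compared for microneedle, of which 272 (3.79%) were at least 2-fold higher and 121 (1.68%) lower; low-cycle LCs gave 259 (3.87%) and 113 (1.69%) of 6688. Scin, an actin-severing protein, was at 176 CPM in microneedle against 4.94 CPM in untreated cycling LCs, and at 221 against 17.8 CPM in low-cycle LCs. Il21r, the receptor of interleukin 21, was at 218 against 8.90 CPM and at 222 against 6.89 CPM. Lpar1, a receptor for lysophosphatidic acid, was at 494 against 55.1 CPM and at 484 against 62.0 CPM. All 3 genes were higher in both kinds of LC, with log2 differences of 4.19 and 3.31 for Scin, 4.01 and 4.25 for Il21r and 3.05 and 2.87 for Lpar1. A single cell held 67 of the 173 Scin UMIs of the microneedle cycling LCs, which were at 110 CPM without it. Rps6ka2, a kinase of the RSK family, was an exception: 17.3 against 16.8 CPM in cycling and 110 against 22.0 CPM in low-cycle LCs.

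The cycle genes were summed in microneedle and untreated cycling cells. The S phase set summed to 1109.7 against 1231 CPM, the late mitotic set to 987 against 1426 CPM and the spindle list to 5859.6 against 7336 CPM. Of the 14 compared genes of the S phase set, none was 2-fold higher or lower (median log2 -0.05), and none of the 10 late mitotic genes (-0.47) or 29 spindle genes (-0.40) was, where 3.79% of all genes were higher and 1.68% lower. At shares this low, counts of 0 do not set the lists apart. Single cells set some of the extremes: Ccl17, a chemokine, had 473 UMIs in untreated cycling LCs, of which 465 came from 1 cell, and Retnla 189 of 189. Il1a, the cytokine interleukin 1 alpha, had 54 of its 56 UMIs in 1 microneedle cell.

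Croton oil cycling LCs were compared with untreated ones in the same way, with the same limit of 132790 UMIs. Of 7658 genes compared, 923 (12.1%) were at least 2-fold higher than in untreated cycling LCs and 1253 (16.4%) lower; with counting intervals apart these were 559 (7.3%) and 509 (6.65%). In low-cycle LCs 407 (5.96%) and 376 (5.5%) of 6834 were higher and lower. Tnfrsf9, the costimulatory receptor 4-1BB, was at 889 CPM against 9.14 CPM in cycling and at 525 against 8.42 CPM in low-cycle LCs. C1qa, a chain of complement C1q, was at 1559 against 62.8 CPM and at 1467 against 59.1 CPM. Myo10, an unconventional myosin of filopodia, was at 1032 against 33.4 CPM and at 670 against 40.4 CPM. These 3 genes were higher in both kinds of LC, and some others were not. Tmsb10, a thymosin that binds actin, had no UMI in croton oil against 206 CPM in untreated cycling LCs, at least 9.10-fold lower, and was at 62.1 against 103 CPM in low-cycle LCs. In untreated cycling LCs 1 cell held 146 of the 832 Tmsb10 UMIs, and the level without that cell was 172 CPM, so the bound is smaller without it. Uap1, an enzyme of amino sugar synthesis, had no UMI against 43.0 CPM, and was at 57.5 against 40.9 CPM in low-cycle LCs. With the limit for a count of 0 at 22.6 CPM, the drop of Uap1 is not shown to reach 2-fold. Icam1, an adhesion molecule, was at 377 against 39.8 CPM, with all 50 UMIs in 1 cell, and at 25.2 against 39.8 CPM in low-cycle LCs.

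The S phase set was lower in the 7 croton oil cells. It summed to 218 CPM against 1231 CPM in untreated cycling LCs, a sum over all 15 genes that no filter touches. At least 2-fold lower were 12 of the 14 genes compared, where 16.4% of all genes were lower, but most of these genes were compared only because they reached 20 CPM in the untreated cells, so that count is no support. In the range of 1000 to 2000 CPM of the 8-gene sum, which held 3 Mki67-led cells and 1 cell with all 8 genes, the set was at 273 against 1722 CPM in untreated cells of that range, and in the other 3 cells, at 2000 to 4000 CPM, it was at 175 against 1325 CPM. Rrm2 had no UMI, for which the limit used throughout, 3 counts of 132790, lies at 22.6 CPM, at least 8.37-fold lower than the 189 CPM of untreated cycling LCs. The late mitotic genes differed between these cells. In the lower range their sum was 461 against 617 CPM, and in the higher range, where each of the 3 croton oil cells had all 8 genes, 2867 against 1217 CPM. Ccnb1 was at 17.1 against 18.7 CPM in the lower and 283 against 77.2 CPM in the higher range. Cdc20 had no UMI against 45.8 CPM in the lower and was at 215 against 94.8 CPM in the higher range. The lower croton oil range pooled only 58507 UMIs, where 1 UMI stands at 17.1 CPM. Its Ccnb1 value is therefore 1 UMI, and its 0 for Cdc20 cannot show a difference from 45.8 CPM. Over all 7 cells these genes were at 166 against 111 and at 120.5 against 137 CPM, so the pooled value of Cdc20 lay below that of untreated cells and the value of the 3 cells above it. Cenpa (ENSMUSG00000029177), the centromeric histone, was at 188 against 86.3 CPM in the lower and 1333 against 186 CPM in the higher range, and it was also higher in low-cycle LCs, at 143 against 27.3 CPM. Cenpa belongs to the late mitotic set, so its 1333 and 186 CPM are part of the 2867 and 1217 CPM above. A large part of the croton oil sum in the higher range thus came from a gene that was also higher outside the cycling LCs. In the 4 cells with all 8 genes alone, the S phase set summed to 256 CPM, and in the 3 Mki67-led cells to 139.6 CPM, against 1246 CPM in the 185 untreated cells with at least 4 of the 8 genes.

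Depth and other cell types were measured in the same cells. Cycling LCs were deeper than low-cycle LCs: the median was 19983 against 11535 UMIs in the untreated, 17057 against 12796 in the croton oil and 27466 against 17438 in the microneedle library. At 3000 UMIs per cell the median number of genes was 1659.5 against 1566, 1582 against 1556, and 1654 against 1577. Scrublet doublet scores of cycling LCs had a lower median (0.0509, 0.0412 and 0.0710) than those of low-cycle LCs (0.1004, 0.0688 and 0.0835). Against low-cycle LCs of matched depth (6102, 2342 and 2914 cells) no count of genes moved by over 1.5 times.

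Markers of other cell types were also summed in cycling LCs. Cd3g, Trbc1, Trbc2 and Trdc, of T cells, had no UMI in any cycling LC, and no mast cell or fibroblast marker had one. The T cell list also held Cd3d, Cd3e and Cd247, whose levels are not given here. Absence of the whole T cell list is therefore not stated, and melanocyte markers are not given either. The 5 neutrophil markers summed to 45.2 CPM in croton oil cycling LCs against 214 CPM in low-cycle LCs, and to 10.2 against 224 CPM in the microneedle library. Of these, S100a8 and S100a9 were at 78.9 and 132 CPM in low-cycle microneedle LCs and at 1.02 and 7.14 CPM in cycling ones. The 10 keratinocyte markers, 4 of them held down by the gate, summed to 91.4 against 119.6 CPM in the untreated and 97.9 against 152 CPM in the croton oil library, and to 59.2 against 57.9 CPM in the microneedle library. Of the 2 endothelial markers, Pecam1 was at 27.5 CPM (27 UMIs) in microneedle cycling LCs against 13.2 CPM in low-cycle LCs and 9.64 CPM in untreated cycling LCs. The monocyte and macrophage markers, mostly Adgre1, were at 181 against 272, 211 against 172 and 217 against 216 CPM, and the conventional dendritic cell markers at 93.9 against 134, 113 against 106 and 75.5 against 76.2 CPM. Their part in the results was not tested.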

How the data were processed

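Cell by gene tables of UMI counts were deposited for 3 libraries, 1 per group. Per the labels, they came from Chromium 3' libraries, and per the submitters' processing notes the authors used Cell Ranger 8.0 and GRCm39; the file headers give version 8.0.0. The deposited counts are whole numbers and not normalized. All 34289 features were read, of which 80 share a symbol with another, and 0 columns were left unused.

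The members and gene lists were chosen with earlier results of these data known, so a list's count is not independent evidence. UMIs were summed over the cells of a class in each library and scaled to CPM with exact Poisson intervals; shares have Clopper-Pearson intervals. Genes with at least 20 CPM on either side were compared, with a pseudocount of 5 CPM and a call at 2-fold. Genes were named from 39 lists (423 genes, all found) and from those with the largest differences, of which a part is printed: 15 higher and 10 lower in the untreated contrast, 8 each way between libraries, and 5 each way between cycling and low-cycle changes. The genes printed from these, the histone list, some values of single cells and the Mki67-only cells were chosen after seeing the data.

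Cells were thinned by drawing UMIs without replacement, with a fixed seed. The rule removes no doublets. Scrublet's own threshold called 0 cells, so the alternative removed the highest scores at 0.8% per 1000 cells. The scripts were tested on simulated data. Alternatives were thresholds, gates, depth, scaling (TMM from edgeR 4.0.16, used only for scaling factors, and median of ratios), pseudocount and filters. Python 3.11.15, numpy 2.4.6, scipy 1.17.1, pandas 2.3.3, scanpy 1.11.5 and matplotlib 3.10.9 were used. Promoters came from RefSeq GRCm38.p6 and were matched by symbol.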

Additional observations from a re-analysis of the deposited data

Results flagged for a closer look

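Cells gated as keratinocytes (keratin sum at least 1% and MHC class II sum below 2% of UMIs) showed the opposite order to LCs. They reached 1000 CPM of the 8 genes in 2 of 163 cells of the untreated library (1.23%), 82 of 210 after croton oil (39.0%) and 12 of 77 after microneedle punches (15.6%). Each library was enriched for LCs, and the difference between the cell types was not tested.

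LCs with at least 8 Mki67 UMIs and none of the 8 other mitotic genes made up 1.14% of gated LCs in the microneedle library. This signal lies mostly outside the cycling LCs and was above the 0.171% of the untreated library, whose interval was 0.0977 to 0.277%. The microneedle library was deeper. With 5000 UMIs drawn from each LC and at least 3 Mki67 UMIs asked for, the shares were 1.19% and 0.329%, which lie closer together.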

How the results depend on the processing

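No paired analysis was possible because each group has 1 library. The order untreated, microneedle, croton oil of the cycling shares held under every alternative run. Shares that left their interval were, for untreated, 3.22% (threshold 500 CPM), 1.59% (2000 CPM), 2.69% (3000 UMIs) and 1.72% (8 other mitotic genes), for croton oil 0.470% (500 CPM) and 0.378% (3000 UMIs), and for microneedle 1.81% (500 CPM), 0.338% (2000 CPM), 1.42% (3000 UMIs) and 0.905% (5000 UMIs). The cause was not tested.

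With at least 50 CPM on either side, fewer genes being compared, calls numbered 280 against 447 (untreated contrast), 569 against 1405 (croton oil contrast), 267 against 502 (microneedle contrast), 1167 against 2176 (croton oil over untreated) and 208 against 393 (microneedle over untreated). With no filter they were 2958, 3901 and 692 for the croton oil contrast, croton oil over untreated and microneedle over untreated. With cycling at 2000 CPM (149, 3 and 19 cells) the croton oil contrast gave 2374 and the microneedle contrast 758. Alternatives chosen after seeing the data gave 2183 (at least 4 of the 8 genes) and 655 (intervals apart) for the croton oil contrast and 1068 (intervals apart) for croton oil over untreated. Ccl17 and Retnla turned from log2 2.11 and 3.37 to -1.90 and -0.0028 in the untreated contrast at 2000 CPM. A further 58 of 490 values of named genes under the alternatives moved beyond the tolerance set for them, as did 153 of 1028 list medians. These are not listed singly.

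With TMM the median of all genes in the untreated contrast moved from 0.03 to -0.15, and the share of calls that were higher from 91.5% to 78.8%. In the croton oil contrast that share moved from 50.7% to 23.4% with TMM and to 34.9% with median of ratios. The croton oil contrast rests on 7 cells with 132790 UMIs.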

Other observations

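Outside the gate, 8 untreated cells, 90 cells after croton oil and 25 after microneedle punches reached 1000 CPM of the 8 genes. LCs with the S phase set at 1000 CPM that were not cycling by the rule made up 1.84%, 0.360% and 0.906% of gated LCs, and 7.48%, 3.15% (2.73 to 3.61%) and 3.55% (3.08 to 4.07%) with each LC thinned to 3000 UMIs, where the intervals of the treated libraries overlapped.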
